A study of Rattus norvegicus with 17 samples.

Results

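Desmosomes rivet neighbouring epithelial cells together and anchor their keratin filaments, and the genes described here encode their adhesive cadherins and the plaque proteins under them. The list held 10 rat genes: the desmogleins Dsg1, Dsg2, Dsg3 and Dsg4, the desmocollins Dsc1, Dsc2 and Dsc3, the plakophilins Pkp1 and Pkp3, and desmoplakin, Dsp. Members were found by matching the sequence names of the array probes to rat RefSeq gene symbols. That gave a named probe for 5 of the 10 genes, Dsg3, Dsg4, Dsc2, Dsc3 and Pkp3, with 1 probe each, among 11167 named genes and 20710 probes kept on the arrays. All 5 passed the filter on dim probes, which asked for a signal well above background on at least 8 of 17 arrays. Dsg1, Dsg2, Dsc1, Pkp1 and Dsp were not matched to a probe and are not analysed here.

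The arrays came from skin explants of young male CD hairless rats, labelled as 2 to 3 months old, a strain in which exposed and sham animals alike carry the hairless trait. That age is taken as the age at the start, since exposure then lasted 5.5 months. Exposed rats received 94 GHz millimetre waves for 3 h a day on 3 days a week over that time, and sham exposed rats served as controls. The labels assign 9 arrays to exposed skin and 8 to sham skin, while the design names 6 exposed and 8 sham animals. Some exposed arrays may therefore come from 1 animal, since no label links an array to a rat or to its housing, and the p-values given here reflect only how arrays differ. The body site of an explant is not given.

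In a desmosome, the outer parts of desmogleins and desmocollins bind those of the next cell, and their tails are held by plakoglobin and plakophilins, which desmoplakin joins to keratin. In stratified epidermis, DSG3 and DSC3 are known from the lower, dividing layers, DSG1 and DSC1 from the upper layers, and DSG2 and DSC2 from a wide range of epithelia. DSG4 is known from the hair shaft and from upper epidermis, and loss of Dsg4 gives the lanceolate hair phenotype of mice and rats.

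The desmosomal cadherin genes lie side by side on rat chromosome 18, with Dsc3, Dsc2 and Dsc1 on the minus strand and Dsg1, Dsg4, Dsg3 and Dsg2 on the plus strand. Pkp3 lies on chromosome 1. The sequences that follow are the 200 bases before the annotated start of each of the 4 cadherin genes measured here, read from RefSeq for the assembly GRCr8 and written 5′ to 3′ on the strand of the gene. They are shown because Dsg4 and Dsg3 are neighbours whose starts resemble each other but whose levels, given further on, showed no correlation past the test. The windows are chr18:11995702-11995901 on the plus strand for Dsg4, chr18:12074121-12074320 on the plus strand for Dsg3, chr18:11757467-11757666 on the minus strand for Dsc2 and chr18:11688872-11689071 on the minus strand for Dsc3. Capitals mark matches to a LEF/TCF motif (CTTTGNT), a GC box (GGGCGG) or the core bound by FOXN1 (GACGC), searched on both strands.
Dsg4: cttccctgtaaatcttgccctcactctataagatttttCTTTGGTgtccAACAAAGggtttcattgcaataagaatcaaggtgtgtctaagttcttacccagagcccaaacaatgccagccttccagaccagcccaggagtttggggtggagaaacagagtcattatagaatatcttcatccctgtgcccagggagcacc
Dsg3: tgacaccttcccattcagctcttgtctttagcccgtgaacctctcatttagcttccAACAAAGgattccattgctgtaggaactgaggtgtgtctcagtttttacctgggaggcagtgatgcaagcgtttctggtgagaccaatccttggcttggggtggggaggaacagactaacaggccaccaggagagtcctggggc
Dsc2: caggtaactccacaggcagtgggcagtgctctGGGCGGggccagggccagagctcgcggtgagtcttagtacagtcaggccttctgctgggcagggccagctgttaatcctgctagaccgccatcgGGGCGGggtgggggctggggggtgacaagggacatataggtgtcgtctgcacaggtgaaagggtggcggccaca
Dsc3: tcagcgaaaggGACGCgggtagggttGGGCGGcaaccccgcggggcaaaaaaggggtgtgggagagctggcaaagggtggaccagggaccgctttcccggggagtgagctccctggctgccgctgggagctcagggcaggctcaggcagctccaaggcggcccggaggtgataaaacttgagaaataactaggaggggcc

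A promoter was found in the table for 9 of the 10 listed genes, not for Pkp3. The letters of the LEF/TCF motif occurred at 2 places before Dsg4, at 1 before Dsg3 and at 1 before Dsg1, and in none of the other 6 windows, against 13.0% of 33469 rat promoters of that length. The GC box occurred in 5 of the 9 windows, 2 times before Dsc2, Dsg2 and Pkp1, 3 times before Dsp and 1 time before Dsc3, against 28.6% of those promoters. It did not occur before Dsg3, Dsg4, Dsg1 or Dsc1. The FOXN1 core occurred in 3 of the 9 windows, 1 time before Dsc3 and Pkp1 and 2 times before Dsp, against 19.1% of promoters. A TATA box (TATAAA, in 10.4% of promoters), an AP-1 motif (TGANTCA, 4.97%) and a grainyhead-like motif (AACNGGTT, 1.42%) were searched as well and had no match in the 9 windows. None of the motifs overlaps another in the sequences shown. Over 60 bases without gaps, Dsg3 and Dsg4 shared 47 identical bases, or 78.3%, in stretches that begin 154 and 161 bases before their starts. The next closest of the 36 pairs of windows shared 56.7%. The LEF/TCF match before Dsg3 and 1 of the 2 before Dsg4 lie at the same position in the stretch that these genes share. They are therefore not separate occurrences. All motif matches given here describe letters in a window and not a bound factor.

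Values are log2 of the probe signal relative to the 75th percentile of its array, so 0 is the level of the probe at that percentile, and 1 unit is a doubling. That percentile lay between 1077 and 1703 signal units over the 17 arrays, 66.7% to 70.8% of probes were well above background, and 0 spots were saturated. The keratinocyte genes Krt5, Krt14, Krt15, Krt1, Krt2 and Ivl were well above background on 17 of 17 arrays, which fits the label of skin. Precision is limited by the number of arrays. The explants are bulk tissue, in which fewer cells of a type and less RNA per cell cannot be told apart. Levels of different probes are not set against each other.

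The comparison of exposed with sham skin asks whether chronic exposure altered expression. None of the 5 measured genes differed past the test. In limma, 0 of 5 had an adjusted p under 0.05, against 0% of the 20710 probes, the lowest adjusted value among them being 0.983. Before adjustment, 0 of the 5 genes and 943 probes, or 4.55% of all, had a p under 0.05, and these probes split into 123 with a higher and 820 with a lower level in exposed skin. The differences lay above 0 for Dsg4, Dsc2 and Pkp3 and below 0 for Dsg3 and Dsc3, with a median of 0.06 against -0.018 over all named genes.

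Dsg3, a desmoglein and the antigen of pemphigus vulgaris in people, ran from -1.82 through a median of -1.43 to -1.16 in exposed skin, against -1.71, -1.36 and -1.05 in sham skin. The 2 ranges overlapped almost entirely, and the sham mean was exceeded by 3 of 9 exposed arrays. The means were -1.45 ± 0.24 in exposed skin and -1.37 ± 0.22 in sham skin (SD, n = 9 and 8), a difference of -0.08 (95% interval -0.30 to 0.15; limma adjusted p = 0.983). Slides were read from the leading number of the code in each array's title, which does not itself name it a slide. Slides 1 to 4 hold 3 and 2, 4 and 2, 1 and 1, and 1 and 3 exposed and sham arrays. On them the Dsg3 difference was 0.02, -0.25, 0.28 and -0.10, so its sign was not the same throughout.

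Dsg4, the desmoglein of the hair shaft, varied over the widest range of the 5 genes and came close to background on several arrays. Its values ran from -7.62 through -4.76 to -3.39 in exposed skin, against -7.88, -5.57 and -3.47 in sham skin. In signal units that was 8.1, 61.5 and 189 in exposed skin and 5.71, 27.5 and 142 in sham skin. The probe was well above background on 7 of 9 exposed and 6 of 8 sham arrays, and its low end is therefore not exact in size. High and low arrays occurred in both groups, and 6 of 9 exposed arrays exceeded the average of sham skin. The means were -5.03 ± 1.46 in exposed skin and -5.63 ± 1.35 in sham skin (SD, n = 9 and 8), a difference of 0.60 (-0.76 to 1.95; limma adjusted p = 0.983). As a ratio the interval runs from 0.590-fold to 3.87-fold, so the arrays bound the exposure effect on this gene only loosely. The difference was 0.11 on slide 1, -0.77 on slide 2 and 1.01 on slide 4, of which slides 2 and 4 include arrays not well above background. On slide 3 the single exposed array was higher than the single sham array, whose probe was not well above background, so no size is given. The pooled difference was 0.27 without sham replicate 5, the array with the lowest Dsg4 value, and 0.12 with normexp background correction, which lifts dim signals.

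Dsc2, a desmocollin of many epithelia, ran from -4.11 through -3.82 to -2.52 in exposed skin, against -4.31, -3.84 and -2.19 in sham skin. Most arrays of either group sat near the median and a few lay far above it. The 3 highest were sham replicate 3 at -2.19, exposed replicate 9 at -2.52 and exposed replicate 3 at -2.57. The means were -3.50 ± 0.63 in exposed skin and -3.68 ± 0.67 in sham skin (SD, n = 9 and 8), a difference of 0.17 (-0.45 to 0.80; limma adjusted p = 0.983). Within slides 1 to 4 it was 0.31, -0.75, 0.20 and 1.46, and over the omission of single arrays it ran from 0.05 to 0.39, with the highest value without sham replicate 3.

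Dsc3, the desmocollin of the lower epidermis, ran from -1.23 through -0.96 to -0.83 in exposed skin, against -1.02, -0.88 and -0.60 in sham skin. The 2 ranges overlapped, with 2 of 9 exposed values above the average of sham skin. The means were -1.01 ± 0.15 in exposed skin and -0.89 ± 0.13 in sham skin (SD, n = 9 and 8), a difference of -0.12 (-0.27 to 0.03; limma adjusted p = 0.983). Its difference was below 0 on all 4 slides, at -0.13, -0.17, -0.09 and -0.04. It had the smallest unadjusted p of the 5 genes, 0.104 in limma.

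Pkp3, a plakophilin that binds the cadherin tails, ran from 1.35 through 1.78 to 1.94 in exposed skin, against 1.42, 1.69 and 1.95 in sham skin. The 2 groups covered nearly the same range, and the average of sham skin was exceeded on 6 of 9 exposed arrays. The means were 1.72 ± 0.19 in exposed skin and 1.66 ± 0.18 in sham skin (SD, n = 9 and 8), a difference of 0.06 (-0.13 to 0.25; limma adjusted p = 0.983). On slides 1 to 4 it was -0.17, 0.07, 0.08 and 0.27. For Dsg3, Dsc3 and Pkp3 the 95% interval reaches no farther than about 0.30 log2 units from 0 on either side.

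**Figure D1:**
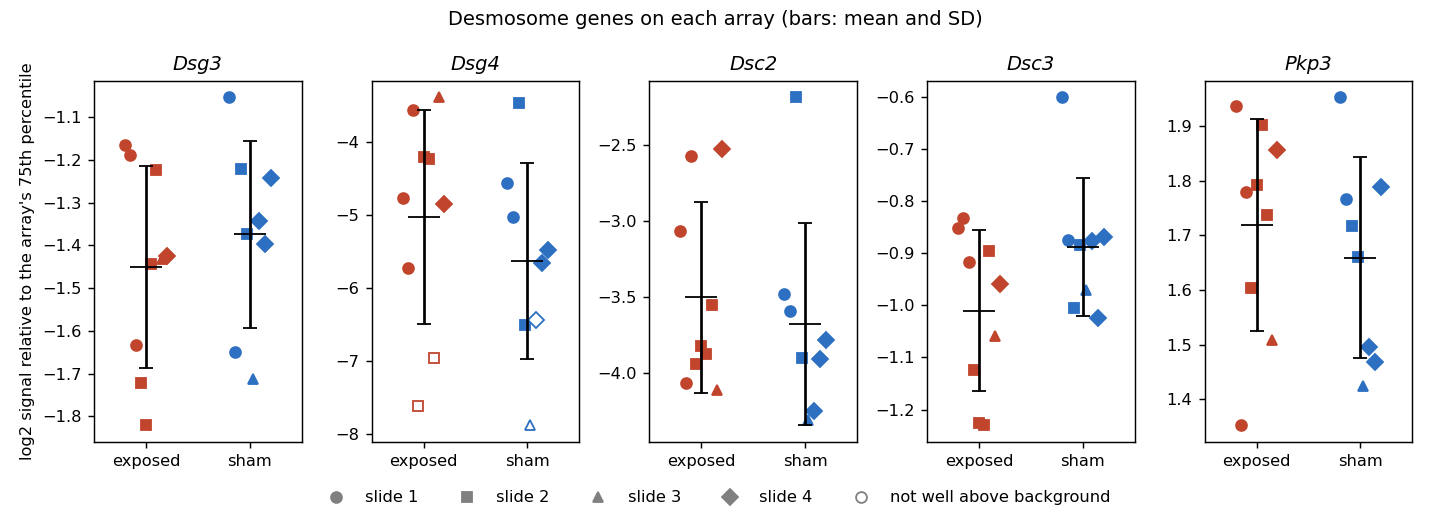
Each point is 1 array, with log2 signal relative to the array's 75th percentile on the vertical axis, a panel with its own scale per gene, 9 exposed arrays left of 8 sham arrays, and bars for the mean and SD. The groups overlap for all 5 genes, and the open symbols of Dsg4 are the 4 arrays on which its probe was not well above background.

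None of the other desmosome genes passed the test either. Of 8 such genes listed, 5 had a named probe, and 0 of 5 passed the test, with 1 difference above 0 and 4 below. Perp, a membrane protein of desmosomes, averaged 6.79 ± 0.10 in exposed skin and 6.88 ± 0.12 in sham skin (SD, n = 9 and 8), a difference of -0.08. Plakoglobin, Jup, was at -0.04, periplakin, Ppl, at -0.04, Pkp2, a further plakophilin, at 0.02 and envoplakin, Evpl, at -0.02. Ppl had the widest of these intervals, from -0.32 to 0.24.

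Neighbouring junction genes were read from lists of adherens junction, tight junction and desmosome protease genes, and no gene of these lists passed the adjusted test. In the adherens junction list 9 of 10 genes were measured, 5 above 0 and 4 below, with a median of 0.05. Its smallest p values belonged to p120 catenin, Ctnnd1, at -0.27 (-0.48 to -0.06; limma adjusted p = 0.983), and vinculin, Vcl, at 0.18 (-0.001 to 0.36). In the tight junction list 8 of 9 were measured, 3 above 0 and 5 below, with a median of -0.009. Claudin 8, Cldn8, was at -0.25 (-0.46 to -0.04) and occludin, Ocln, at -0.13 (-0.26 to -0.01). In the list of desmosome proteases and inhibitors, not all of which are known to cut desmosome cadherins, 11 of 14 were measured. Of these, 4 lay above 0 and 7 below, with a median of -0.04. Prostasin, Prss8, and the kallikrein Klk10 were both at -0.13. Over all named genes the median was -0.018, with 416 of 11167 at an unadjusted p under 0.05.

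**Figure D2:**
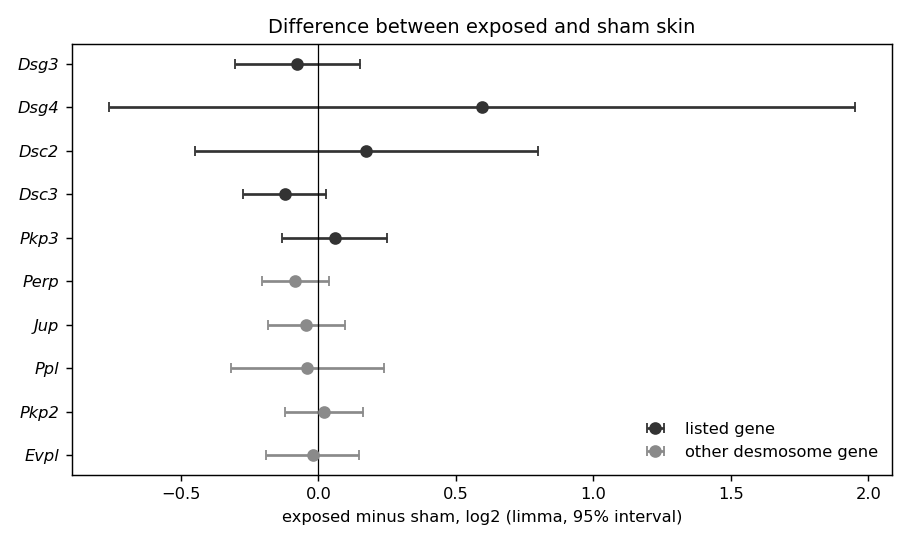
Points give exposed minus sham in log2 units on the horizontal axis, with bars for the limma 95% interval, for the 5 listed genes (dark) and the 5 other desmosome genes (grey). Every interval crosses 0, and that of Dsg4, from -0.76 to 1.95, is the widest.

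Between slides, as read from the title codes, the genes did not separate after adjustment. A limma F test over 4 slides called 0 of 5 genes, against 0% of all probes at an adjusted p under 0.05 and 8.9% at an unadjusted one. Dsc3 had the smallest p, 0.0450 before and 0.547 after adjustment, with slide means of -0.82, -1.06, -1.01 and -0.93. The adjusted p of the other 4 genes lay between 0.729 and 0.911.

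The genes differed widely in how much they varied between explants. Over all 17 arrays the SD of Dsg4 was 1.40 log2 units, larger than that of 98.8% of kept probes, although 4 arrays at its low end have no exact size. Over the 13 arrays on which its probe was well above background the SD was 0.96 and the highest was 8.65-fold above the lowest, by signal relative to the percentile. Dsc2 had an SD of 0.63, larger than that of 94.9% of probes, and a range of 4.37-fold. Dsg3, Pkp3 and Dsc3 had SDs of 0.22, 0.19 and 0.15, around the median of 0.19 for kept probes, with ranges of 1.70-fold, 1.52-fold and 1.55-fold. The SD between the 2 spots of a probe on an array was 0.60 for Dsg4, 0.07 for Dsc2, 0.05 for Dsg3 and 0.12 for Dsc3, in each case below the SD between arrays. For Dsc3 it came closest to that SD of 0.15, while for Dsg4 it was largest in log2 units. Pkp3 has 1 spot.

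To describe what the variation goes with, each gene was set against 6 marker scores, those of hair shaft, inner root sheath, basal keratinocyte, suprabasal keratinocyte, wound keratinocyte and skeletal muscle genes. A score is the mean over measured list genes of the log2 value minus its mean over all arrays. The hair shaft score rests on 12 of 17 listed genes, among them the hair keratins Krt31, Krt33a, Krt33b, Krt34, Krt35, Krt36, Krt81 and Krt85, and 7 of the 12 were well above background on all arrays. It ranged from -3.45 to 2.70 in exposed skin and from -5.57 to 2.84 in sham skin. The inner root sheath score rests on 7 of 10 genes, such as Krt25 and Krt27, of which 3 were well above background on all arrays. It ranged from -3.20 to 1.79 in exposed skin and from -6.78 to 1.98 in sham skin. None of the desmosome genes is in a score. Of the 30 relations, 4 had an adjusted p under 0.05 by both Pearson's r and Spearman's rho, and 3 of the 4 belonged to Dsg4.

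Dsg4 was high where hair genes were high. Against the hair shaft score it had r = 0.86 (permutation p = 1e-05, the smallest that 100000 permutations can give; adjusted p = 0.00015) and rho = 0.77 (permutation p = 0.00048, adjusted p = 0.0048), over 17 arrays. Against the inner root sheath score it had r = 0.87 (permutation p = 1e-05, adjusted p = 0.00015) and rho = 0.89 (permutation p = 2e-05, adjusted p = 0.0006). Without sham replicate 5 and exposed replicate 4, the arrays farthest from the median of these scores, r was 0.75 for the hair shaft and 0.90 for the inner root sheath. With each slide centred on its own mean, r was 0.93 and 0.95, and within the 6 arrays of slide 2 it was 0.93 and 0.97. The other slides hold 5, 2 and 4 arrays, fewer than the 6 taken here as the least for a correlation. Within the groups, r with the hair shaft score was 0.83 over 9 exposed arrays and 0.91 over 8 sham arrays. The slope was 0.55 log2 units of Dsg4 per unit of hair shaft score.

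The 4 arrays on which the Dsg4 probe was not well above background were exposed replicates 4 and 7 and sham replicates 5 and 6, and these had the 4 lowest hair shaft scores, -3.45, -1.56, -5.57 and -2.44. With those 4 arrays set to a single tied value, rho remained 0.74 for the hair shaft (permutation p = 0.00097) and 0.87 for the inner root sheath (permutation p = 3e-05). The tied value was -6.44, the highest of the 4. Sham replicate 4, well above background at -6.50, was left ranked below it. The order was not perfect. Exposed replicate 8 had the highest Dsg4 value of all arrays, -3.39, at a middling hair shaft score of -0.02.

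Dsg4 also had a relation of opposite sign to the basal keratinocyte score, with r = -0.67 (permutation p = 0.00342, adjusted p = 0.0256) and rho = -0.66 (permutation p = 0.00493, adjusted p = 0.0211). That relation missed the threshold under some settings. Without exposed replicate 3 and sham replicate 6, r was -0.62 and the adjusted p was 0.109, and with quantile scaling r was -0.55 and the adjusted p 0.106. Slide-centred r was -0.73 and r within slide 2 was -0.95. The basal score itself covers a narrow range, from -0.30 to 0.19 in exposed skin and from -0.20 to 0.28 in sham skin.

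Dsc2 was the other cadherin gene that went with the hair shaft score, with r = 0.69 (permutation p = 0.00341, adjusted p = 0.0256) and rho = 0.81 (permutation p = 0.00019, adjusted p = 0.00285). Its 3 highest arrays, sham replicate 3, exposed replicate 9 and exposed replicate 3, had the 3 highest hair shaft scores, 2.84, 2.02 and 2.70. The other 14 arrays lay between -4.31 and -3.06. Without sham replicate 5 and exposed replicate 4, r was 0.75, within slide 2 it was 0.59, and slide-centred r was 0.62, with an adjusted p of 0.0605 that missed the threshold. The slope was 0.20 log2 units per unit of hair shaft score. With the inner root sheath score Dsc2 passed by rank only, with r = 0.54 (permutation p = 0.0260, adjusted p = 0.0974) and rho = 0.72 (permutation p = 0.00133, adjusted p = 0.00998). Slide-centred r was 0.42 there (adjusted permutation p = 0.113).

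Dsc2 and Pkp3 also had a relation to the overall brightness of an array. Brightness, as the 75th percentile of processed signal, itself had r = 0.40 with the hair shaft score, a relation that was not tested. Against the 75th percentile of processed signal, Dsc2 had r = 0.63 (permutation p = 0.00665, adjusted p = 0.0222) and rho = 0.65 (permutation p = 0.00632, adjusted p = 0.0316). Pkp3 had r = 0.72 (permutation p = 0.00158, adjusted p = 0.0158) and rho = 0.69 (permutation p = 0.00291, adjusted p = 0.0291). Neither relation kept its call under the alternatives. Without sham replicates 6 and 7, r was 0.60 for Dsc2 and 0.64 for Pkp3, with an adjusted p of 0.0645 each. With slides centred it was 0.59 and 0.66, with an adjusted p of 0.109 each, and within slide 2 it was 0.18 and 0.37. Dsg4 had r = 0.31 (permutation p = 0.223, adjusted p = 0.446) and rho = 0.34 (permutation p = 0.190). With the percentage of probes well above background, Dsc2 had r = 0.66 (permutation p = 0.00352, adjusted p = 0.0176) and rho = 0.61 (adjusted p = 0.0373). That call was lost without exposed replicates 1 and 3 (adjusted p = 0.0645) and with slides centred (adjusted p = 0.0653). Pkp3 had r = 0.47 (adjusted p = 0.139). Adjustment is over the 10 relations of both measures. After regression of gene and score on the 75th percentile, the correlation with the hair shaft score was 0.84 for Dsg4 (permutation p = 4e-05, adjusted p = 0.0006) and 0.62 for Dsc2 (permutation p = 0.00894, adjusted p = 0.0268). Regression on the percentage of probes was not tested.

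Dsg3 and Dsc3, the pair known from the lower epidermis, showed no relation to hair genes past the test. Against the hair shaft score, Dsg3 had r = 0.28 (permutation p = 0.282) and rho = 0.12, and Dsc3 had r = 0.03 (permutation p = 0.905) and rho = -0.05. The r of Dsg3 was -0.22 without sham replicate 5 and exposed replicate 4, -0.005 over exposed arrays and 0.62 over sham arrays. Against the basal keratinocyte score the r of Dsg3 and of Dsc3 was 0.39 and 0.40, with an adjusted permutation p of 0.294 each. Dsg3 had its highest r with the wound keratinocyte score, 0.52 (permutation p = 0.0334, adjusted p = 0.1115), with rho = 0.52 (permutation p = 0.0356, adjusted p = 0.119). Pkp3 had r = 0.54 with the hair shaft score (permutation p = 0.0222, adjusted p = 0.0949) but rho = 0.67 (permutation p = 0.00453, adjusted p = 0.0211), and r was 0.42 without sham replicate 5 and exposed replicate 4. With slides centred its r was 0.41 (adjusted p = 0.145). With the inner root sheath score Pkp3 had r = 0.58 (permutation p = 0.0102, adjusted p = 0.0613) and rho = 0.69 (permutation p = 0.0033, adjusted p = 0.0198). That relation passed with slides centred, at r = 0.45 (adjusted permutation p = 0.00825), and did not without sham replicate 5 and exposed replicate 4, at r = 0.54 (adjusted p = 0.185). Dsc3 had r = -0.56 with the skeletal muscle score (permutation p = 0.0184, adjusted p = 0.0920) and rho = -0.63 (permutation p = 0.00788, adjusted p = 0.0296). Over the 26 relations outside the 4, r ran from -0.56 to 0.58.

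**Figure D3:**
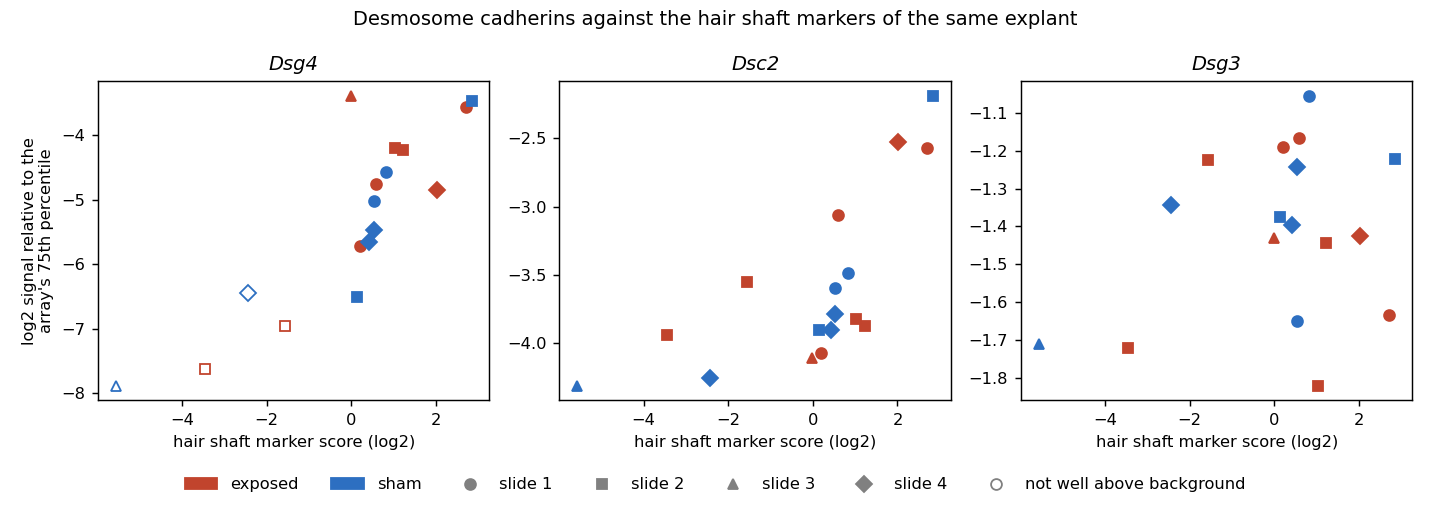
Each point is 1 array, with the hair shaft score (log2) on the horizontal axis and the log2 signal of Dsg4, Dsc2 or Dsg3 relative to the array's 75th percentile on the vertical axis, exposed in red and sham in blue, 1 symbol per slide. Dsg4 climbs along the score in both groups (r = 0.86), Dsc2 is high on the 3 arrays with the highest score, and Dsg3 shows no such order (r = 0.28).

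The slopes of the genes on the hair scores were compared on log ratios, chosen after the pairwise values had been seen, which cancel the scaling of an array. Since Dsg4 had an SD of 1.40 against 0.15 to 0.63 for the others, each of its ratios moves mostly with Dsg4 itself. The ratios therefore restate its own relation in large part, and are no independent evidence that it differs from the other genes. The log ratio of Dsg4 to each of the other 4 genes rose with the hair shaft score and with the inner root sheath score in all 8 relations, with r from 0.65 to 0.84 and an adjusted permutation p under 0.05 over 14 ratio relations. For Dsg4 over its neighbour Dsg3, r was 0.82 with the hair shaft score (permutation p = 2e-05, adjusted p = 7e-05), rho was 0.79 (permutation p = 0.00023), r without sham replicate 5 and exposed replicate 4 was 0.74, and slide-centred r was 0.91. The exception in stability was Dsg4 over Dsc2, where r was 0.65 (permutation p = 0.0053, adjusted p = 0.00824) and rho was 0.61 (permutation p = 0.0112), but r without those 2 arrays was 0.37. Of 6 ratios of Dsc2 to Dsg3, Dsc3 or Pkp3, 4 passed, with r from 0.41 to 0.68 over the 6. Dsc2 over Dsc3 had the highest of these with the hair shaft score, r = 0.68 (permutation p = 0.00396, adjusted p = 0.00693) and rho = 0.79 (permutation p = 0.00024), and r was 0.79 without the same 2 arrays. Setting each gene against the mean of the other 4 gave 12 of 30 relations with an adjusted p under 0.05 by Pearson's r, 3 of them of Dsg4 itself and 9 of Dsg3, Dsc3 and Pkp3. By both r and rho 11 passed, without that of Pkp3 and the basal score (rho = 0.46, adjusted permutation p = 0.156). For the relations of Dsg3, Dsc3 and Pkp3 the mean of the other genes contains Dsg4 and moves mostly with it, so they do not stand for those genes alone.

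Among themselves the genes formed 1 pair past the test out of 10. Dsg3 and Dsc3, a desmoglein and a desmocollin, had r = 0.64 (permutation p = 0.00451, adjusted p = 0.0451) and rho = 0.70 (permutation p = 0.00238, adjusted p = 0.0119) over 17 arrays. The call was lost without exposed replicate 5 and sham replicate 1, the arrays farthest from the median of Dsg3, where r was 0.38 (permutation p = 0.161). Without single arrays r ran from 0.54 to 0.71. Slide-centred r was 0.64, with an adjusted p of 0.0841, r within slide 2 was 0.71, and r was 0.72 over exposed and 0.51 over sham arrays. Dsc2 and Pkp3 had r = 0.56 (permutation p = 0.0198, adjusted p = 0.0725) and rho = 0.72 (permutation p = 0.00134, adjusted p = 0.0119), with -0.04 within slide 2, and both genes had the relations to array brightness given above. Dsg4 and Dsc2 had r = 0.55 (permutation p = 0.0218, adjusted p = 0.0725) and rho = 0.49 (permutation p = 0.0456, adjusted p = 0.119). With slides centred that pair passed, at r = 0.54 (adjusted permutation p = 0.0210), as did Dsg4 and Pkp3, at r = 0.45 (adjusted p = 0.0456), against r = 0.46 (adjusted p = 0.167) and rho = 0.49 (adjusted p = 0.119) before. Dsg3 and Dsg4, whose windows hold 60-base stretches with 78.3% identical bases, had r = 0.14 (permutation p = 0.597, adjusted p = 0.707) and rho = 0.05 (permutation p = 0.861).

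The genes most like each member over the 17 arrays were read from 11161 named genes by Pearson's r, as a description without a test, since all values share the arrays and their scaling. For Dsg4 these were Fbp1, a gluconeogenic phosphatase, at 0.95, Gprc5a, an orphan receptor, at 0.94, and Stmn4, of the stathmin family, at 0.94. In all, 147 genes had r above 0.8 with Dsg4, among them 10 of the 12 hair shaft genes and 4 of the 7 inner root sheath genes. For Dsc2 they were Rnf34, a ubiquitin ligase, at 0.93, Abhd17b, a depalmitoylase, at 0.88 and Pwwp2b at 0.88, with 56 genes above 0.8, among them 1 of the 12 hair shaft genes. For Pkp3 they were Noct, Pbk and Pcgf3, each at 0.84, with 25 genes above 0.8. For Dsg3 they were Actg1, the cytoplasmic gamma actin, at 0.86, Gab1, a signalling adaptor, at 0.81 and Esco1, a cohesin acetyltransferase, at 0.80, with 3 genes above 0.8. For Dsc3 they were Ccdc127, Slmap and Rnf19a, each at 0.80, with 1 gene above 0.8. Dsc3 itself ranked 109th for Dsg3, the nearest of the other members to any member.

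**Figure D4:**
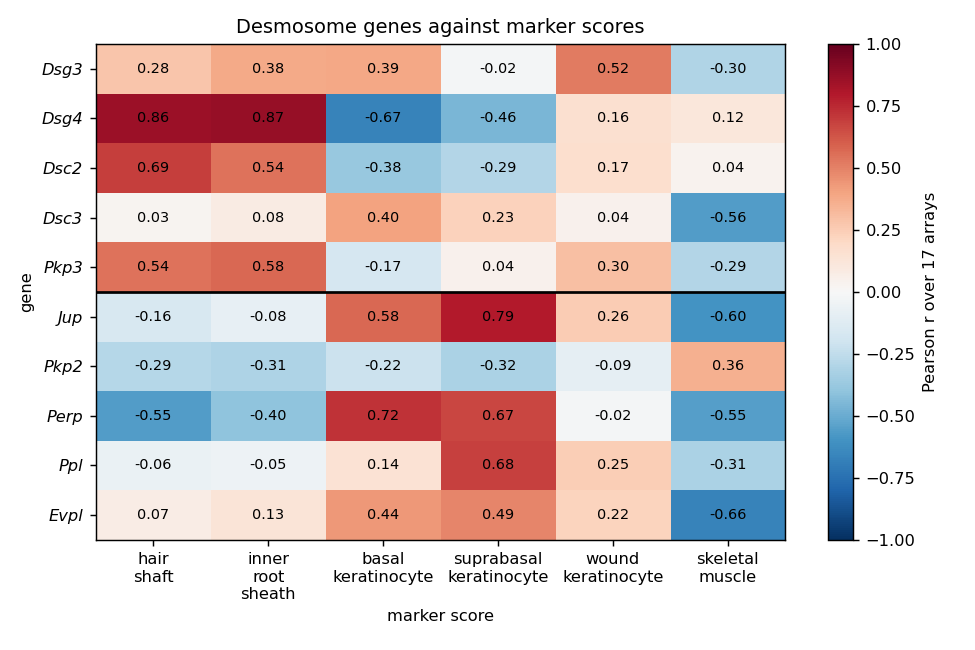
Colours and printed values give Pearson's r over 17 arrays between each gene (down the page, listed genes above the line and other desmosome genes under it) and each marker score (across). Dsg4, Dsc2 and Pkp3 are highest with the hair shaft score or the inner root sheath score, while Dsg3, Dsc3, Jup, Perp, Ppl and Evpl are highest with a keratinocyte score.

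The other desmosome genes were set against the same 6 scores. Jup had r = 0.79 with the suprabasal keratinocyte score (permutation p = 0.0002, adjusted p = 0.006) and rho = 0.73 (permutation p = 0.0015, adjusted p = 0.0443). That r was 0.76 without exposed replicates 3 and 6, 0.81 with slides centred and 0.69 within slide 2. Perp had r = 0.72 with the basal score (permutation p = 0.00103, adjusted p = 0.0155) and rho = 0.68 (permutation p = 0.00295, adjusted p = 0.0443), with r of 0.83 with slides centred and 0.79 within slide 2. Without exposed replicate 3 and sham replicate 6 its r was 0.51 and the call was lost (adjusted p = 0.181). With the suprabasal score Perp had r = 0.67 (permutation p = 0.00327, adjusted p = 0.0245) and rho = 0.51 (permutation p = 0.0362, adjusted p = 0.103), with r of 0.43 without exposed replicates 3 and 6 (adjusted p = 0.311). Ppl had r = 0.68 with the suprabasal score (permutation p = 0.00241, adjusted p = 0.0241) and rho = 0.60 (permutation p = 0.0122, adjusted p = 0.0524), with r of 0.70 with slides centred and 0.59 without exposed replicates 3 and 6 (adjusted p = 0.0798). Evpl had r = -0.66 with the skeletal muscle score (permutation p = 0.00421, adjusted p = 0.0253) and rho = -0.64 (permutation p = 0.0066, adjusted p = 0.0491), with r of -0.68 with slides centred and -0.57 without exposed replicates 8 and 4 (adjusted p = 0.0975). With the hair shaft score Perp had r = -0.55 (permutation p = 0.0195, adjusted p = 0.0732) and rho = -0.62 (permutation p = 0.00948, adjusted p = 0.0491). That relation passed with slides centred, at r = -0.62 (adjusted permutation p = 0.0280), and without sham replicate 5 and exposed replicate 4, at r = -0.80 (adjusted p = 0.0063). With slides centred the skeletal muscle score passed with Jup, at r = -0.71 (adjusted p = 0.0140), and with Perp, at r = -0.72 (adjusted p = 0.0154), against r = -0.60 and -0.55 before. Their relations were added after the values of the listed genes had been seen, and whether they differ from those of Dsg4 was not tested.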

How the data were processed

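RNA of skin explants was hybridised to 1-colour Agilent arrays, 9 of exposed and 8 of sham skin. The deposited scanner files hold fluorescence intensity, background-subtracted and detrended within each array by Agilent Feature Extraction 10.7.3.1 with protocol GE1_107_Sep09, per the file headers. The well-above-background, outlier and saturation flags, an other kind of value, were written by the same program, per the file headers. The authors' deposited value table holds log2 values of 14853 probes centred on a median of 0 per probe. Its columns had medians of -0.037 to 0.041 and correlated at 0.981 to 0.999 with the scanner values, which settled its direction and log2 scale. How it was scaled, and why these probes, is not given in the sources used here.

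Control spots and spots flagged as outliers were left out, spots of a probe were averaged, and log2 of the processed signal minus the array's 75th percentile was used. A probe was kept when at least 50% of its spots were well above background on at least 8 arrays, which left 20710 of 30367. Names came from the rat RefSeq gene table of GRCr8, through the sequence names in the files, for 17998 probes. The array grid is annotated on rn4, and its coordinates were not used. Where a gene had more than 1 kept probe, the probe of highest mean stood for it.

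Groups and slides were tested with limma 3.58.1 in R 4.3.3, adjusting by Benjamini-Hochberg over the 20710 probes, at a threshold of 0.05. Correlations had two-sided permutation tests with 100000 resamples, adjusted within each family of relations (scipy 1.17.1). The fit and the permutation test were tested on simulated data first. The members and lists were chosen with earlier results of these data known. Named genes were all members, every measured gene among the other desmosome genes, the 2 smallest p values of each other junction list, and the 3 genes most like each member. Alternatives were median and quantile scaling, normexp (offset 50) for the background, a stricter and no filter on dim probes, slide as a block, array weights, the value table, marker scores as covariates and the omission of each array. For normexp the median pixel signal was used, in place of the mean, which was not used here.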

Additional observations from a re-analysis of the deposited data

Results flagged for a closer look

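In 2 of the 10 groups of arrays examined, 1 for each of 5 genes in exposed and in sham skin, 1 array lay far from the others for its group's range. Sham replicate 3 had a Dsc2 value of -2.19, the highest of all arrays, while the other 7 sham arrays lay between -4.31 and -3.48. The same array had the highest hair shaft score, 2.84. Sham replicate 1 had a Dsc3 value of -0.60, above the other 7 sham arrays, which lay between -1.02 and -0.87. It also had the highest Dsg3 value of all arrays, -1.05. Chance alone gives such an array in about 1 of 20 groups.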

How the results depend on the processing

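No paired analysis was possible because the labels give the arrays no replicate numbers shared between groups. The count of 0 calls and the signs of the 5 differences held under every scaling, background, filter, weighting, block, covariate and left-out array tried, for each gene that had a value. Within slides the sign turned for Dsg3 (0.023 on slide 1, 0.28 on slide 3), Dsg4 (-0.77 on slide 2), Dsc2 (-0.75 on slide 2) and Pkp3 (-0.17 on slide 1). Leaving out single arrays gave -0.12 to -0.03 for Dsg3, 0.27 to 0.92 for Dsg4, 0.05 to 0.39 for Dsc2, -0.14 to -0.08 for Dsc3 and 0.03 to 0.11 for Pkp3, and 0 calls throughout. Normexp took Dsg4 to 0.12, and hair shaft and basal scores as covariates took it to 0.17 and Dsc2 to 0.04. The count of 943 probes at an unadjusted p ran from 680 to 1354 without single arrays, and was 579 in the value table and 543 within slide 1. Dsg4 kept r = 0.66 with the hair shaft score and 0.70 with the inner root sheath score under normexp. Relative to the other genes, Dsg4 no longer passed with either score under normexp. There r was 0.46 (adjusted permutation p = 0.166) and 0.52 (adjusted permutation p = 0.120), against 0.80 and 0.83 in the main setting. Its relative relation to the basal score still passed, at r = -0.73 (adjusted permutation p = 0.00768). The log ratios were not computed under normexp. By Pearson's r, the count of 12 relations relative to the other genes was 5 under normexp, and the count of 1 pair of genes, Dsg3 with Dsc3, was 0 without the 2 farthest arrays. With slides centred it was 2, Dsg4 with Dsc2 and Dsg4 with Pkp3, while Dsg3 with Dsc3 was lost. With quantile scaling it was 2, Dsg3 with Dsc3 and Dsc2 with Pkp3. Dsg4 had no value with the filter on all arrays, and neither Dsg4 nor Dsc2 had a value in the deposited table. Each member has 1 kept probe, so other probes could not be tried, and slide 3 allows no test. The log ratios, the tied Dsg4 values, the array signal, the regressions on a second measure and the relations of the other desmosome genes were chosen after seeing the data.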

Other observations

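Regression on a second score changed the values of Dsg3. After regression of both measures on the basal keratinocyte score, Dsg3 had a correlation of 0.58 with the hair shaft score (permutation p = 0.0115, adjusted p = 0.0288 over 15 relations), against 0.28 before. After regression on the hair shaft score, it had 0.62 with the basal score (permutation p = 0.00759, adjusted p = 0.0268), against 0.39 before. For Dsg4 the same steps gave 0.82 with the hair shaft score (permutation p = 0.00031, adjusted p = 0.00233) and -0.57 with the basal score (permutation p = 0.0148, adjusted p = 0.0316). The 2 scores had r = -0.48 with each other over the 17 arrays, and the hair shaft and inner root sheath scores had r = 0.94. For Dsc3 the corresponding values were 0.28 and 0.48, with adjusted permutation p of 0.338 and 0.0848. Dsc2 and Pkp3 also passed with the hair shaft score after regression on the basal score. Their values were 0.63 (adjusted permutation p = 0.0268) and 0.53 (adjusted permutation p = 0.0405). With the basal score after regression on the hair shaft score they had -0.07 and 0.13, with adjusted permutation p of 0.776 and 0.670. These regressions were added after the pairwise values had been seen. They were not repeated with arrays left out or with slides centred. Before regression, the r of Dsg3 with the hair shaft score was -0.22 without sham replicate 5 and exposed replicate 4.

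The tissue scores themselves did not separate the groups at the level of their genes. All 12 measured hair shaft genes lay above 0 in exposed minus sham skin, with a median of 0.71 and 0 past the test, and 6 of 7 inner root sheath genes did so, with a median of 0.54 and 0 past the test. All 9 measured skeletal muscle genes lay above 0, with a median of 1.53 and 0 past the test. Of 7 basal keratinocyte genes 1 lay above 0 and 6 below, with a median of -0.03. Genes of a list vary together between explants, and sham replicate 5 had the lowest hair shaft score, -5.57.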
